A study of Mus musculus with 11 samples.

Results

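The genes described here are 10 that regulate or carry out iron handling in the liver: the hepcidin genes Hamp and Hamp2, and Bmp6, Hfe2, Tfr2, Tmprss6, Id1, Smad7, Tfrc and Slc40a1. They were taken by symbol from a count table of 43346 genes, where each has 1 row. All libraries came from livers of FVB/NJ mice, a synthetic transgenic model, with hepatocellular carcinoma induced by expressing the tyrosine kinase receptor MET together with β-catenin, which carries the Wnt signal into the nucleus. By their response labels, 6 libraries were from responders to anti-PD-1, an antibody against an inhibitory receptor of T cells, 4 were from non-responders and 1 had no treatment, although its treatment label also names the antibody. The labels give no age and do not say whether the tissue was tumour or the liver around it, or whether each library is a separate mouse, so p-values measure only the spread between libraries. The 10 genes were chosen by earlier results of the responder against non-responder contrast, in which the counts of Hamp and Hamp2 were among the larger increases, and by their role in iron handling. Their values in that contrast are therefore a description, with no test.

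Hepcidin is a peptide hormone made by hepatocytes that binds the iron exporter ferroportin, the product of Slc40a1, and sends it for degradation, which lowers the release of iron into the blood. Its transcription is switched on mainly by BMP ligands from liver endothelial cells, read through receptors and SMAD proteins with hemojuvelin (Hfe2) as co-receptor, and also by interleukin-6 through STAT3. Cells adjust transferrin receptor 1 (Tfrc) and ferroportin to their own iron through iron-regulatory proteins that bind stem-loops in the mRNA. The mouse carries a second hepcidin gene, Hamp2, beside Hamp on chromosome 7.

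The regulatory letters of the hepcidin genes are shown first because the sequences of Hamp and Hamp2 are alike. The 250 bases before each annotated start (RefSeq, GRCm38.p6) are on the minus strand at chr7:30944030-30944279 for Hamp and chr7:30924182-30924431 for Hamp2. Capitals mark GGCGCC, the core of the BMP-responsive element, or the letters of Hamp2 aligned with it, and then a match to the STAT site TTCNNNGAA.
Hamp promoter: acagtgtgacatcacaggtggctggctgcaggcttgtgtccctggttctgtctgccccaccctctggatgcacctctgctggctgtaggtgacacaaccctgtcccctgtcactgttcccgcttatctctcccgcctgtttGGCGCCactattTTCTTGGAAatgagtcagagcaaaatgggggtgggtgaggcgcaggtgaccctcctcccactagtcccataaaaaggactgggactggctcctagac
Hamp2 promoter: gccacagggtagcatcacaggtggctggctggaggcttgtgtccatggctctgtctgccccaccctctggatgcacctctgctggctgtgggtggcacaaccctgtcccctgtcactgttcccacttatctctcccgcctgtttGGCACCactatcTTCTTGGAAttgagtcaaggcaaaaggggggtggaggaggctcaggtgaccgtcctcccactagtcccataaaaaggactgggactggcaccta
The aligned windows had 227 identical positions, 20 substitutions and 6 gap columns, an identity of 89.7%. The STAT match TTCTTGGAA was in both, 97 to 89 bases before the start in Hamp and 94 to 86 bases before it in Hamp2. Hamp held GGCGCC 109 to 104 bases before its start. The aligned letters in Hamp2 were GGCACC, which is G4A counted from 1 at the 5′ end of the motif. Searched on both strands in 32851 promoter windows of the same length, GGCGCC was held by 9.59%, TTCNNNGAA by 7.02% and the E-box CACGTG by 6.02%. Of the 10 genes, 5 had a window in the promoter table. Among the windows searched, GGCGCC was also present in Tfrc (89 to 84 bases before its start) and CACGTG in Bmp6 (127 to 122 bases before). A gene not named here may have had no window or an unsearched one, so no absence of a motif is read for it. A match is a description of letters, not of binding.

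The transcripts of the hepcidin genes are also alike, to a degree that differs by exon. Between GENCODE transcripts, exon 1 was identical at 134 of 136 positions, exon 2 at 60 of 60, and exon 3, which encodes the mature peptide, had 20 substitutions and 10 gap positions, an identity of 86.6%.

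Sequencing depth was 17876515 to 40565708 gene counts in responders, 25542066 to 39941835 in non-responders and 49884800 without treatment. Hepatocyte markers, led by Alb, summed to 70128 to 85596 CPM (counts scaled to library size with TMM factors) in responders and 103460 to 139940 CPM in non-responders, with 2 of 8 called higher and 2 lower. Leukocyte markers summed to 12.5 to 34.6 CPM in responders and 7.42 to 31.0 CPM in non-responders, with 0 of 6 called. The part of these markers in the values of the iron genes was not tested. Non-responder 1 stood apart in read placement. Its 3′ index was 1.18, against -0.0608 to 0.122 in the other 10 libraries. The index is a median over 4728 genes of the log2 ratio of read density in later over earlier exons. For each gene, the median ratio across all libraries was subtracted first. Values near 0 therefore mean placement like that of the typical library, not even coverage. In non-responder 1 this relative ratio was 1.35 for Tfrc, 1.57 for Tfr2, 1.77 for Tmprss6 and 1.59 for Slc40a1. Without non-responder 1, the log2 fold change was 0.58 for Tfr2 and 0.52 for Tmprss6.

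Of the 10 genes, Hamp and Hamp2 had the largest log2 fold changes by gene count, and these differed from each other by less than their SE. The normalised read count of Hamp, in TMM-scaled CPM, was 676, 669, 809, 472, 716 and 450 in responders 1 to 6. It was 47.3, 27.7, 115 and 106 in non-responders 1 to 4, and 591 in the library without treatment. Every responder was above every non-responder, and responders 4 and 6 were the lowest of their group. The means were 632 ± 142 CPM in responders and 73.9 ± 43.0 CPM in non-responders (SD, n = 6 and 4), a ratio of 8.55. The edgeR log2 fold change of responders over non-responders was 3.09 ± 0.40 (SE), and it stayed between 2.83 and 3.39 when any 1 library was left out. The library without treatment lay within the responder range. In bulk liver RNA, fewer cells of a type and less RNA per cell cannot be told apart.

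Hamp2 had 120, 97.6, 108, 60.7, 89.5 and 43.0 CPM in responders 1 to 6, against 11.3, 3.45, 15.6 and 12.7 CPM in non-responders 1 to 4, and 64.0 CPM without treatment. The groups did not overlap, and the log2 fold change was 3.01 ± 0.43 (SE). Because the genes can share reads, the gene counts were set beside the deposited counts per exon. Exon 1 held 92.6% to 97.8% of the Hamp2 exon counts in responders, 59.6% to 93.7% in non-responders (82.5% to 93.7% without non-responder 1) and 97.3% without treatment. In Hamp, exon 1 held 28.9% to 31.7% in responders and 29.4% to 33.5% in non-responders.

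Exons 2 and 3 of Hamp2 summed to 3.47, 2.56, 3.51, 4.61, 1.999 and 1.37 CPM in responders 1 to 6, against 5.35, 0.653, 1.001 and 0.948 CPM in non-responders 1 to 4, and 1.74 CPM without treatment. Non-responder 1, the library with the high 3′ index, was the highest of all, so the groups overlapped, whereas every responder was above the other 3 non-responders. On these exons alone, a choice made after seeing the data, the log2 fold change of Hamp2 was 0.57 ± 0.57 (SE) with all libraries and 1.73 ± 0.38 (SE) without non-responder 1. The ratio of group means was 1.47, or 3.37 without that library. The same ratio was 8.91 for exon 1 of Hamp2, 8.07 for exon 1 of Hamp and 8.90 for exons 2 and 3 of Hamp. Exon counts of Hamp summed to 1.41 to 1.44 times its gene count. For Hamp2 the sum was 1.01 to 1.02 times the gene count in responders and 1.02 to 1.18 times in non-responders. Of the 50-base windows of the Hamp2 transcript, those found letter for letter in Hamp numbered 44 of 136 starting in exon 1, 13 of 60 in exon 2 and 3 of 175 in exon 3. How the authors' counting placed reads that match both genes was not tested, so the gene count of Hamp2 is uncertain as a measure of that gene.

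**Figure D1:**
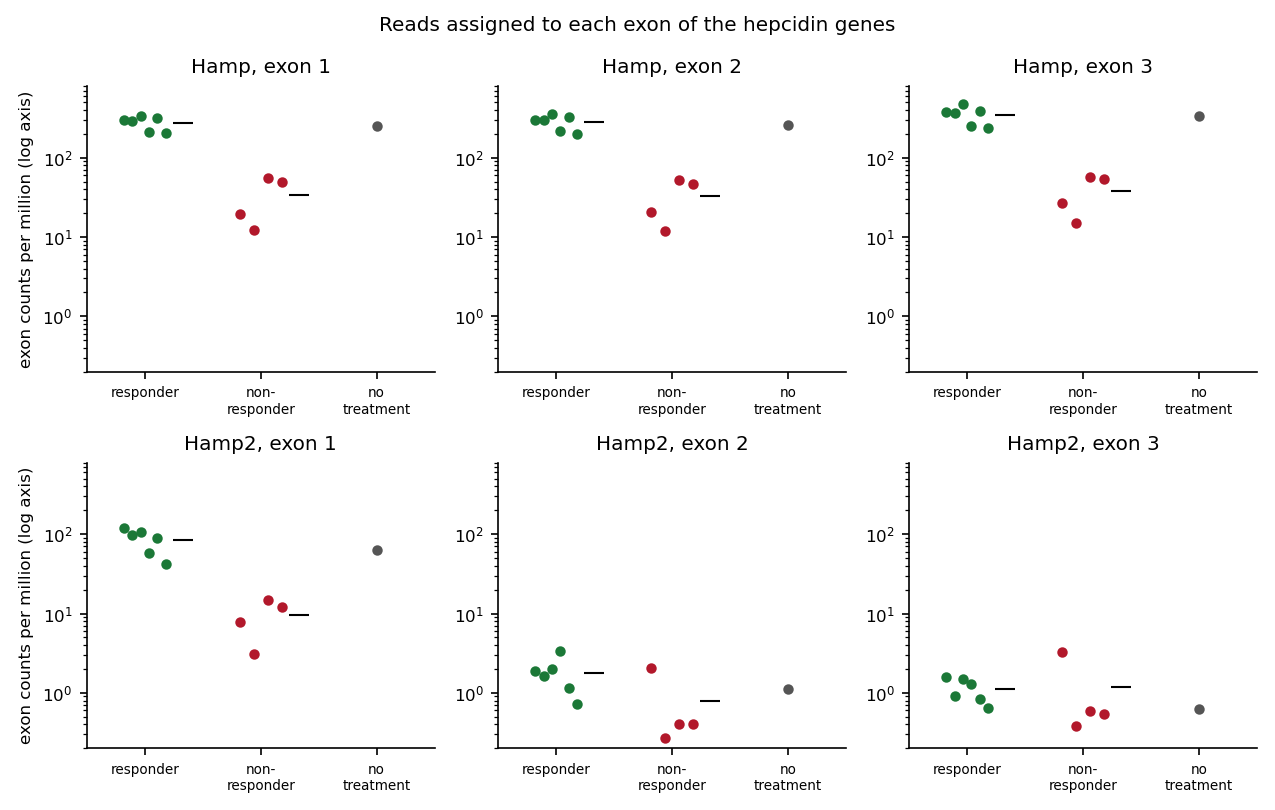
Exon counts as CPM on a log axis for the 3 exons of Hamp (upper row) and Hamp2 (lower row), 1 point per library, with the mean of each group as a bar. Responders and non-responders are apart in every exon of Hamp and in exon 1 of Hamp2, whereas in exons 2 and 3 of Hamp2 all libraries are low and 1 non-responder, replicate 1, lies among or above the responders.

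Of the reads assigned to either hepcidin gene, Hamp2 took 8.72% to 15.1% in responders, 10.7% to 19.2% in non-responders and 9.77% without treatment. The lowest share, in responder 6, had a 95% exact binomial interval of 8.33% to 9.12%. The highest, in non-responder 1, the library with the high 3′ index, had one of 17.3% to 21.3%. Molecular identifiers are not mentioned, so both intervals reflect counting error alone. They do not cover the uncertain placement of reads that match both genes. Most Hamp2 counts lay in exon 1, so the share is as uncertain as the gene count of Hamp2.

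**Figure D2:**
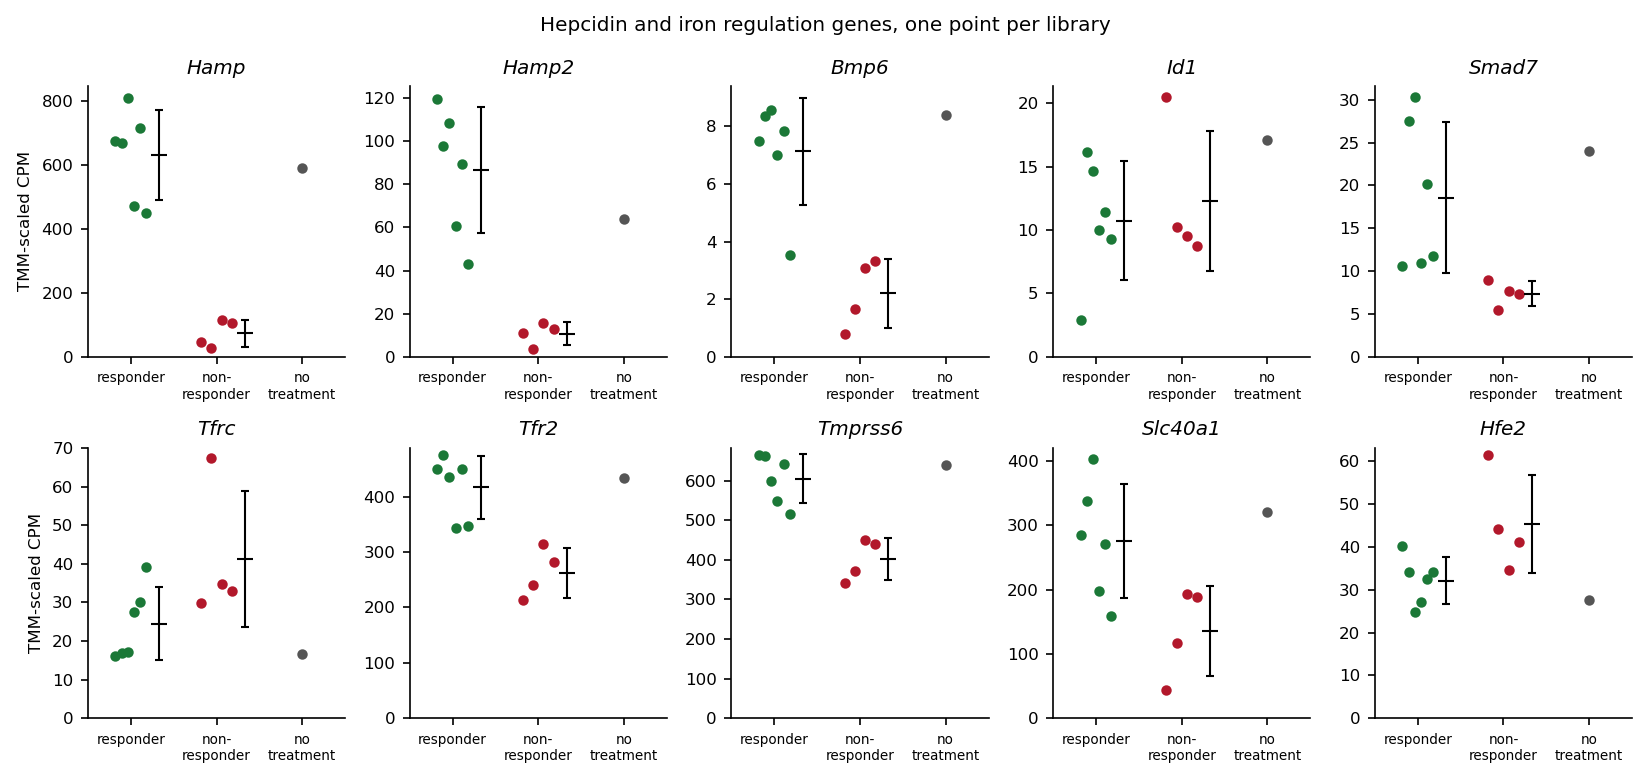
TMM-scaled CPM of the 10 genes, 1 point per library, with the mean and SD beside the responders (n = 6) and the non-responders (n = 4); each panel has its own linear axis from 0. Responders lie wholly above non-responders for Hamp, Hamp2, Bmp6, Smad7, Tfr2 and Tmprss6, and the groups overlap for Id1, Tfrc, Slc40a1 and Hfe2.

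Upstream of hepcidin, the ligand gene Bmp6 was higher in every responder than in any non-responder, at a low level. Bmp6, the main endothelial ligand that raises hepcidin with iron, had 7.50, 8.36, 8.57, 7.02, 7.83 and 3.52 CPM in responders 1 to 6, against 0.775, 1.66, 3.08 and 3.32 CPM in non-responders 1 to 4, and 8.41 CPM without treatment. Responder 6 was close to non-responder 4, and the other responders were all at 7.02 CPM or above. The log2 fold change was 1.68 ± 0.38 (SE), and 1.41 without non-responder 1. Sinusoidal endothelial markers, 8 genes, summed to 297 to 522 CPM in responders and 185 to 435 CPM in non-responders. Of these 8, 0 were called higher and 1, Lyve1, lower, and their part in the Bmp6 difference was not tested.

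The co-receptor gene Hfe2 was not called. Hfe2, which encodes hemojuvelin, had 40.1, 34.2, 24.7, 27.1, 32.4 and 34.2 CPM in responders 1 to 6, against 61.3, 44.0, 34.5 and 41.1 CPM in non-responders 1 to 4, and 27.7 CPM without treatment. The groups overlapped at responder 1 and non-responder 3, and the log2 fold change was -0.49 ± 0.17 (SE), or -0.31 without non-responder 1.

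Tfr2, transferrin receptor 2, through which hepatocytes sense iron-loaded transferrin, had 450, 475, 435, 344, 450 and 347 CPM in responders 1 to 6, against 213, 241, 315 and 282 CPM in non-responders 1 to 4, and 434 CPM without treatment. The lowest responder was above the highest non-responder, and the log2 fold change was 0.67 ± 0.16 (SE). Tmprss6, the membrane protease matriptase-2 that cleaves hemojuvelin and so restrains hepcidin, had 664, 662, 599, 549, 641 and 514 CPM in responders 1 to 6, against 340, 373, 451 and 440 CPM in non-responders 1 to 4, and 639 CPM without treatment. These groups did not overlap either, with a log2 fold change of 0.59 ± 0.14 (SE). Group means differed 1.59-fold for Tfr2 and 1.51-fold for Tmprss6.

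Smad7 and Id1, both target genes of BMP signalling in hepatocytes, did not differ alike between the groups. Smad7, an inhibitory SMAD that feeds back on the pathway, had 10.6, 27.6, 30.4, 10.9, 20.2 and 11.8 CPM in responders 1 to 6, against 8.97, 5.41, 7.67 and 7.34 CPM in non-responders 1 to 4, and 24.0 CPM without treatment. The groups did not overlap, but responders 1, 4 and 6 were close to non-responder 1. The log2 fold change was 1.34 ± 0.34 (SE). Id1, an inhibitor of helix-loop-helix transcription factors, had 2.94, 16.2, 14.7, 9.97, 11.5 and 9.26 CPM in responders 1 to 6, against 20.5, 10.3, 9.52 and 8.76 CPM in non-responders 1 to 4, and 17.1 CPM without treatment. Responder 1 was the lowest library and non-responder 1 the highest, and the remaining values overlapped. The log2 fold change of Id1 was -0.18 ± 0.39 (SE), and 0.18 without non-responder 1.

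The genes of the iron exporter and the transferrin receptor were not called, and their groups overlapped. Slc40a1, which encodes ferroportin, had 285, 338, 403, 198, 271 and 159 CPM in responders 1 to 6, against 44.4, 118, 193 and 189 CPM in non-responders 1 to 4, and 321 CPM without treatment. Responder 6 lay below non-responders 3 and 4, and the log2 fold change was 1.02 ± 0.38 (SE), or 0.73 without non-responder 1. Kupffer cell markers, 8 genes of resident macrophages that also express ferroportin, summed to 170 to 573 CPM in responders and 74.2 to 400 CPM in non-responders, with 0 of 8 called, and their part was not tested.

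Tfrc, the receptor that takes up iron-loaded transferrin, had 16.05, 16.998, 17.3, 27.4, 30.1 and 39.3 CPM in responders 1 to 6, against 29.8, 67.5, 34.7 and 32.9 CPM in non-responders 1 to 4, and 16.7 CPM without treatment. Responders 5 and 6 overlapped with the non-responders. The log2 fold change was -0.75 ± 0.30 (SE), or -0.40 without non-responder 2. Markers of erythroid cells, in which Tfrc is abundant, summed to 82.5 to 191 CPM in responders and 145 to 294 CPM in non-responders. Of 6 tested erythroid markers 3 were called lower (Hba-a2, Hbb-bt and Slc4a1), and their part in the Tfrc difference was not tested.

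Stem-loops of the kind that iron-regulatory proteins bind are printed for these last mRNAs. They lie at opposite ends of the transcripts, in the 5′ UTR of Slc40a1 and the 3′ UTR of Tfrc. Capitals mark the loop CAGTGN of a stem-loop found by the pattern CNNNNNCAGTGN with 5 paired bases on each side of the loop, G with T allowed, in GENCODE transcripts (GRCm38). The Slc40a1 site is at chr1:45925465-45925493 on the minus strand, and those of Tfrc, on the plus strand, are at chr16:32631219-32631247, chr16:32631598-32631626, chr16:32631663-32631691 and chr16:32631710-32631738.
Slc40a1 5′ UTR: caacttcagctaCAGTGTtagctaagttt
Tfrc 3′ UTR, site 1: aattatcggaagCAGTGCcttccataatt
Tfrc 3′ UTR, site 2: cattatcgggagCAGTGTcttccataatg
Tfrc 3′ UTR, site 3: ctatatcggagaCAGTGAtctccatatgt
Tfrc 3′ UTR, site 4: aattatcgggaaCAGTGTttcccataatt
Searched on the mRNA strand, this pattern was held by 365 of 55341 genes (0.660%). A match describes letters, not binding, and an element that departs from the pattern is missed. The same pattern was found in the 5′ UTR of the ferritin subunit genes Fth1 and Ftl1.

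Of the 10 genes, 6 were called higher in responders at an adjusted p under 0.05 in the edgeR fit over all genes, 0 lower and 4 not called. Over the 17610 genes tested, 4.11% were called higher and 5.82% lower, 9.93% in all. The groups did not overlap for 6 of the 10 genes, always with responders above, against 11.3% of all genes tested, 5.6% with responders above and 5.66% with responders below. The members were proposed from this contrast, so nothing is read from these counts. The median log2 fold change was 0.84 over the 10 genes and -0.02 over all genes tested. The number called higher was 2 to 3 without responder 1, 2, 3 or 5 or without non-responder 2. It was 5 without non-responder 1, 3 or 4, and 7 with DESeq2. Without non-responder 3, 1 of the 10 genes was called lower. In a model that also held the number each sample carries in its title, 0 were called higher.

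That title number ran 1, 3, 9, 13, 16 and 29 in responders, 26, 30, 32 and 37 in non-responders, and was 11 for the library without treatment, and the labels do not say what it counts. With it in the model, the log2 fold change was 3.02 for Hamp, 2.19 for Hamp2, 1.33 for Bmp6, 0.83 for Smad7 and 0.01 for Tfrc. For Tfrc this is the opposite sign and close to no difference. For 9 of the 10 genes the library without treatment lay in the responder range, and Id1 was the exception.

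Per transcript length, on the authors' RPKM scale, Hamp was the most abundant of the 10 genes in both groups, at 1092 ± 289 in responders and 132 ± 71.6 in non-responders. In responders, Hamp2 (133 ± 44.7), Tmprss6 (128 ± 13.5) and Tfr2 (96.2 ± 14.1) followed, with Hamp2 and Tmprss6 differing by less than their spread. The place of Hamp2 is uncertain in both groups. Its reads lay mostly in exon 1, and how reads that match both hepcidin genes were placed was not tested. Next came Slc40a1 (20.9 ± 7.77), Hfe2 (10.6 ± 1.02) and Id1 (6.39 ± 2.95). Smad7 (2.83 ± 1.49), Tfrc (2.68 ± 1.01) and Bmp6 (2.01 ± 0.586) were lowest and not separable by their SD. In non-responders the order was different: Tmprss6 (89.1 ± 7.29) and Tfr2 (63.6 ± 7.47) were above Hamp2 (17.4 ± 7.997), and Hfe2 (16.1 ± 5.03) was above Slc40a1 (10.5 ± 5.10) by about 1 SD. The mean of Hamp in non-responders remained above that of Tmprss6, but by less than its SD. Bmp6 was again the lowest, at 0.639 ± 0.329.

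Within the 6 responders, a spread that was not used to choose the genes, Hamp was set against the other 9. The highest correlations of log2 CPM were with Slc40a1 (Pearson r = 0.94, Spearman rho = 0.77) and Hamp2 (r = 0.91, rho = 0.71). Exact two-sided permutation tests gave p = 0.0222 for the r with Slc40a1 and p = 0.0167 for that with Bmp6 (r = 0.78, rho = 0.83). Adjusted by Benjamini-Hochberg over the 9 relations, both exact p were 0.10, so 0 of 9 passed the threshold and 2 had an unadjusted p under 0.05. For rho the exact p was 0.103 for Slc40a1 and 0.0583 for Bmp6, and both adjusted values were 0.408. For Hamp2 the exact p of r was 0.05 and the adjusted value 0.15. Reads that match both hepcidin genes may enter this r, and their part was not tested.

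Some of these relations changed when a pair of libraries was left out. Without the 2 responders farthest from the median of the other gene, r was 0.84 for Slc40a1 and 0.76 for Bmp6, in both cases with responders 3 and 6 left out. It was 0.03 for Hamp2, -0.82 for Tfr2 (0.89 with all 6) and -0.996 for Tmprss6 (0.79 with all 6). Leaving out the farthest values narrows the range and leaves 4 libraries, too few to judge a relation. When any 1 responder was left out, r was 0.85 to 0.95 for Hamp2 and 0.82 to 0.97 for Tfr2. For Tmprss6 it was then 0.59 to 0.97. Smad7 had r = 0.72 and Tfrc r = -0.70, both with an adjusted exact p above the threshold at 0.2 and 0.232. Without the 2 farthest responders, r was 0.56 for Smad7 and -0.88 for Tfrc. Id1 had r = 0.11 with all 6 responders and 0.93 without the 2 farthest, and -0.11 to 0.81 when any 1 responder was left out. Hfe2 had r = -0.09, and 0.10 without the 2 farthest. Non-responders, with 4 libraries, are too few for a correlation.

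**Figure D3:**
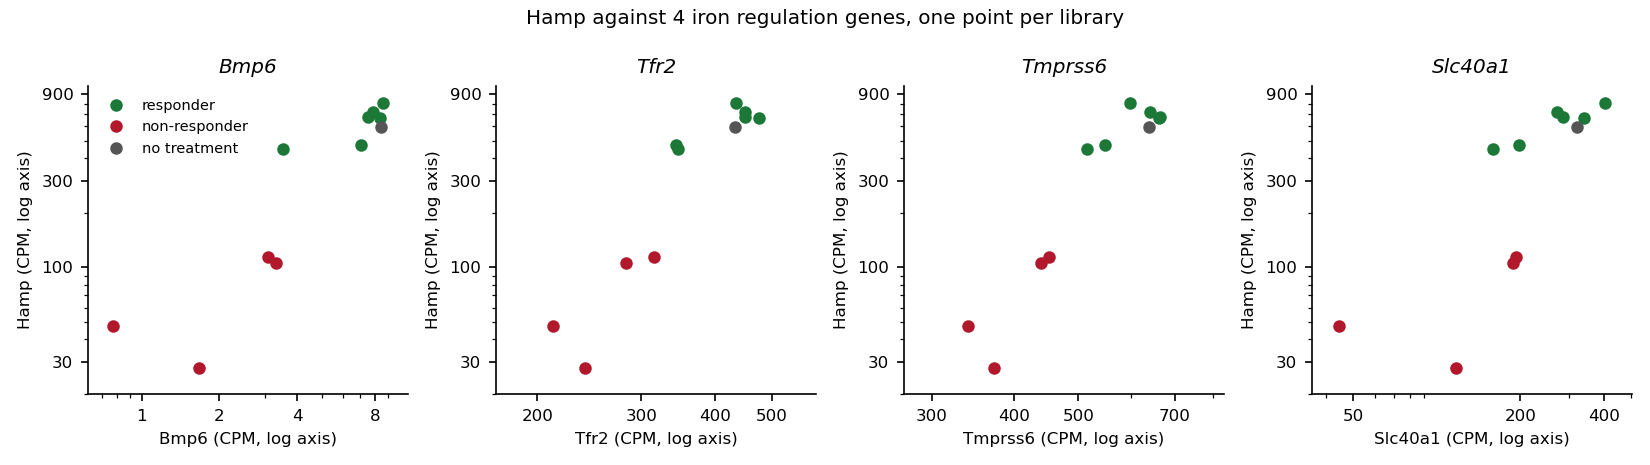
Hamp against Bmp6, Tfr2, Tmprss6 and Slc40a1, all in TMM-scaled CPM on log axes, 1 point per library coloured by response label. Responders 4 and 6 sit lowest in Hamp among the responders in each panel, and the library without treatment lies among the responders.

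Over all 11 libraries, which includes the difference between the groups, the genes with a pattern most like that of Hamp among 11421 compared were Pde8a (r = 0.99), Slco2a1, Plekhb1, Ptk2b and Slc35e3 (all r = 0.98). Among the 9 other genes described here, r with Hamp was 0.98 for Hamp2, 0.95 for Tmprss6, 0.94 for Tfr2, 0.91 for Bmp6, 0.81 for Smad7 and 0.80 for Slc40a1. It was -0.14 for Id1, -0.75 for Hfe2 and -0.75 for Tfrc. Of the genes compared, 0.517% had a higher r than Tmprss6, 1.03% than Tfr2, 2.47% than Bmp6, 8.57% than Smad7 and 9.39% than Slc40a1. This share was 0.0263% for Hamp2, 57.7% for Id1, 88.3% for Hfe2 and 88.6% for Tfrc. All of these r are descriptions across libraries that form clusters by response. That of Hamp2 may also hold reads that match both hepcidin genes.

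The rest of the pathway was described with 91 other iron genes in 4 lists, of which 90 were in the table and 89 were tested. In the same edgeR fit, 9 were called higher and 8 lower in responders (19.1% called, against 9.93% of all genes). Their median log2 fold change was 0.06, against -0.02 over all genes. The lists were chosen with earlier results of these data known, so nothing is read from these shares or those of single lists. Without responder 1, 2, 3 or 5 or non-responder 2, the number higher was 2, 1, 2, 1 and 1. The number lower was 0 without responder 1, 2 or 5 or non-responder 2, and 5 without non-responder 4. With the title number as a covariate both were 0, and 13 iron genes had an unadjusted p under 0.05 against 41 without it.

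The BMP-SMAD branch held most of the higher calls, with 6 of 28 higher, 3 lower and a median log2 fold change of 0.38. In all 32.1% of this list were called, against 9.93% of all genes tested. Leaving out 1 library gave 1 to 6 higher and 0 to 4 lower calls in this list. Smad9, which encodes a receptor-activated SMAD, had 20.4 to 44.1 CPM in responders (median 32.8) against 6.46, 5.01, 11.8 and 7.39 CPM in non-responders. The groups did not overlap. Its log2 fold change was 2.07 (edgeR adjusted p = 0.0121), and it was past the threshold in all 10 fits that left out 1 library, with a highest adjusted p of 0.0458.

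Smad6, another inhibitory SMAD, was higher by 0.92 on the log2 scale (edgeR adjusted p = 0.0287), and Id3, a target like Id1, by 1.11 (edgeR adjusted p = 0.0314). The groups overlapped for Id3, with non-responder 4 at 51.0 CPM and responders 1 and 6 at 44.3 and 50.4 CPM. The endothelial ligand gene Bmp2 was higher by 1.05 (edgeR adjusted p = 0.0389), with 10.97 to 24.96 CPM in responders against 6.13, 6.75, 14.1 and 12.1 CPM in non-responders, which overlapped. Bmp5, a related ligand gene, was higher by 0.83 and Bambi, which encodes a decoy receptor, by 0.68, at edgeR adjusted p of 0.0495 and 0.0490. Both names were given after their values were seen. Smad6 lost its call in 5 of the 10 fits that left out 1 library, Bmp2 in 6 and Id3 in 6.

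Gdf15, a stress-induced cytokine of the same superfamily, had 1.33 to 5.68 CPM in responders, against 22.0, 9.11, 8.70 and 7.54 CPM in non-responders. It had 2.99 CPM in the library without treatment. The log2 change was -1.86 (edgeR adjusted p = 0.0243), and its call was lost in 5 of 10 fits that left out 1 library. Smad5, another receptor-activated SMAD, was lower with a log2 change of -0.66 (edgeR adjusted p = 0.0339), and Fkbp1a, which binds and silences a type I BMP receptor, with one of -0.50 (edgeR adjusted p = 0.0458). The groups overlapped for Smad5 and Fkbp1a, and these last names were also given after their values were seen. Atoh8 (1.14) and Hfe (0.37), 2 further genes of hepcidin regulation, had edgeR adjusted p of 0.0814 and 0.1197. Atoh8 passed without responder 4 (1.30, edgeR adjusted p = 0.0313), without non-responder 1 (1.51, edgeR adjusted p = 0.0481) and with DESeq2 (adjusted p = 0.0180). Hfe was 0.25 without non-responder 1.

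The interleukin-6 and STAT3 branch with the hepcidin transcription factors had 1 higher and 1 lower call among 19 tested, with a median of -0.08. That is 10.5% called, close to the 9.93% of all genes tested. Cebpa, a hepatocyte transcription factor, was higher by 0.95 (edgeR adjusted p = 0.0470), with responder 1 at 1116 CPM and the other responders at 464 to 594 CPM, against 298, 236, 390 and 344 CPM in non-responders. It was past the threshold in 2 of the 10 fits that left out 1 library. Osmr, the oncostatin M receptor, was lower by 1.56 on the log2 scale (edgeR adjusted p = 0.0206) and lost its call in 4 of those fits. Stat3 (-0.15), the STAT3 target Socs3 (-0.79), Il6ra (-0.27), Creb3l3 (0.48) and Usf2 (-0.22) did not pass the test. DESeq2 called Creb3l3 (adjusted p = 0.0230). Socs3 was -0.34 without non-responder 1, and without non-responder 3 it was -1.02 and passed (edgeR adjusted p = 0.0493).

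In the list of iron uptake, storage and the iron-regulatory proteins, 1 of 23 was higher and 3 were lower, with a median of -0.003. The share called was 17.4%, against 9.93% of all genes tested. Ceruloplasmin (Cp), the ferroxidase that works with ferroportin, had 1295 to 2006 CPM in responders, against 2653, 4645, 2380 and 2450 CPM in non-responders, without overlap. Its log2 change was -0.998 (edgeR adjusted p = 0.0233). Transferrin (Trf) was lower by 0.75 on the log2 scale (edgeR adjusted p = 0.0320), but it shares 63.5% of its exon bases with Gm20425 and is uncertain. The ferrireductase gene Steap4 was lower by 0.66, with overlapping groups, and the endosomal channel gene Mcoln1 was higher by 0.43. Cp, Trf, Steap4 and Mcoln1 were past the threshold in 6, 6, 2 and 5 of 10 fits that left out 1 library. The ferritin genes Fth1 (-0.42) and Ftl1 (0.35) and the transporters Slc11a2 (-0.22) and Slc39a14 (-0.38) did not pass the test. Without non-responder 1, Ftl1 was 0.56 and passed (edgeR adjusted p = 0.0338), and Fth1 was -0.22.

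In haem synthesis, scavenging and breakdown, 1 of 19 was higher and 1 lower, with a median of -0.06. The share called was 10.5%, close to the 9.93% of all genes tested. Lrp1, a receptor for haem bound to hemopexin, was higher by 0.67 (edgeR adjusted p = 0.0248). Slc48a1, a haem transporter, was lower by 1.22 on the log2 scale (edgeR adjusted p = 0.0339). However, responders 4 and 6 had 141 and 110 CPM and the other responders 45.7 to 65.7 CPM, against 154, 188, 178 and 193 CPM in non-responders. Lrp1 and Slc48a1 were past the threshold in 6 and 3 of 10 fits that left out 1 library. Hmox1 (-0.11), Hp (-0.68) and Hpx (-0.06) did not pass the test. Without responder 3, Hp was -1.09 and passed (edgeR adjusted p = 0.0407). With non-responder 2 left out, Hmox1 was 0.11 and Hpx 0.08.

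**Figure D4:**
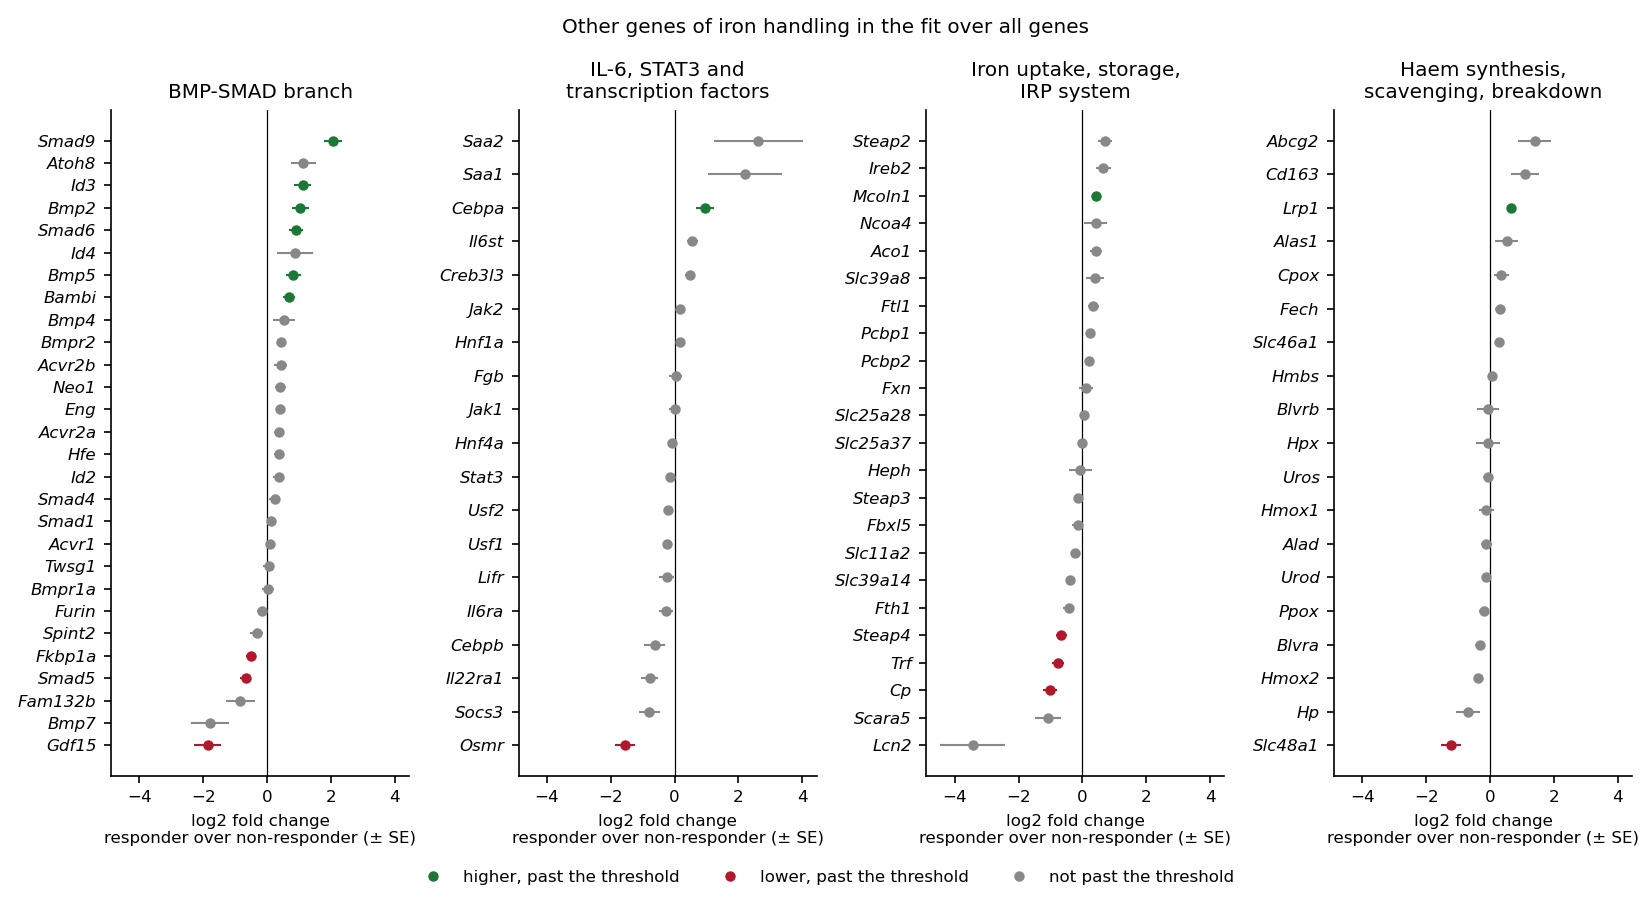
Log2 fold change of responders over non-responders (point) with its SE (line) for the 89 tested iron genes in 4 lists, ordered by size within a list; green and red points passed the edgeR threshold and grey points did not. The BMP-SMAD branch holds 6 of the 9 higher calls, led by Smad9 at 2.07.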

How the data were processed

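Per the labels' protocols, total RNA from liver was extracted with TRIzol, libraries were of the Illumina TruSeq type, and indexing used a kit sold for small RNA. Per the file headers, the authors deposited raw counts and RPKM values by gene, and raw counts by exon. Per the submitters' processing notes, FastQC was run and mm10 was the genome build. Not given in the sources used here are the aligner, the counter, its gene models and its use of strand.

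The response label set the groups. Replicate numbers follow accession order and pair nothing. Responders and non-responders were compared on the raw counts of all genes in R 4.3.3 with edgeR 4.0.16 (low counts removed by filterByExpr, TMM scaling, robust quasi-likelihood F test, Benjamini-Hochberg adjustment over all genes tested, threshold 0.05). The library without treatment has no replicate and entered no fit. CPM values are TMM-scaled, and an SE is the size of the log2 fold change divided by the root of F. The authors' RPKM values were used only to order levels between genes. Correlations used log2 CPM (prior count 2) and exact permutation of pairings in scipy 1.17.1. Sequences came from RefSeq (promoters, GRCm38.p6) and GENCODE release M21 (transcripts, GRCm38), aligned with Biopython 1.88. The fit was tested on simulated data.

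The 10 genes and all lists were chosen with earlier results of these data known. Named genes were all 10, up to 4 genes past the threshold with the smallest p in each of 4 lists, a fixed set of 20 further genes, and the 5 genes most like Hamp among those with an average log2 CPM of 1 or more. Alternatives were RLE or library size scaling, other filters, DESeq2 1.42.0, limma-voom (limma 3.58.1), the title number as a covariate and each library left out in turn. Some items are not reported here.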

Additional observations from a re-analysis of the deposited data

Results flagged for a closer look

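Among the 10 genes in responders and non-responders, 20 groups of values were examined for a library far from the rest of its group, which chance alone gives in about 1 group of 20. For 3 of these groups a library stood apart. Bmp6 in responder 6 was 3.52 CPM, and the next lowest responder was at 7.02 CPM, a gap of 0.693 of the whole range of the group. Id1 in non-responder 1 was 20.5 CPM, with the next highest non-responder at 10.3 CPM and a gap of 0.872 of the range. Tfrc in non-responder 2 was 67.5 CPM, with the next highest non-responder at 34.7 CPM and a gap of 0.870 of the range. Non-responder 1 is also the library with the high 3′ index, and the part of that index in the Id1 value was not tested.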

How the results depend on the processing

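Over all genes, 723 were called higher and 1025 lower in responders by edgeR. DESeq2 called 1396 and 1661, and among the other iron genes 19 higher and 13 lower. With the title number as a covariate 0 genes were called higher and 1 lower (1857 had an unadjusted p under 0.05), and 0 iron genes were called in either direction. Title number and response are partly confounded, and the cause was not tested. Leaving out 1 library gave 38 to 836 higher and 41 to 1158 lower calls over all genes, lowest without non-responder 2 and highest without non-responder 3. Among the iron genes it gave 1 to 9 higher and 0 to 9 lower. Keeping all genes with at least 1 count left 4 iron genes lower, in a fit over 29217 genes. RLE scaling, library size scaling, a filter of 1 CPM and limma-voom kept the 4 counts within 1.5 times those above. Hpx was 0.05 without responder 1, 0.02 without responder 4, 0.05 without responder 5, 0.04 without responder 6 and 0.0838 without non-responder 2, and Hmox1 was 0.11 without non-responder 2, each of opposite sign to its value with all libraries. Without 1 library the log2 fold change ran from -0.52 to 0.08 for Hpx and from -0.23 to 0.11 for Hmox1. The number of correlations with Hamp past the threshold was 0 under RLE scaling, with a prior count of 0.5 and with libraries left out. With 4 or 5 libraries the smallest exact p is 0.0833 or 0.0167 before adjustment over 9 relations, so the counts with libraries left out say nothing about stability. No paired analysis was possible because the replicate numbers follow accession order and the labels give no pairing. Depth limits exons 2 and 3 of Hamp2, which held 55 to 148 counts in responders and 24 to 145 in non-responders.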

Other observations

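A pair of other genes of the iron lists had wide spreads between libraries. Saa1, an acute-phase protein induced by interleukin-6, ranged over 13.1 to 451 CPM in responders, with a median of 16.5, and over 14.5 to 24.8 CPM in non-responders. Its log2 fold change was 2.20 ± 1.16 (SE) with an edgeR adjusted p of 0.251, and its reads may be shared with the closely similar Saa2. Lcn2, which binds bacterial iron carriers, ranged over 1.29 to 61.5 CPM in responders and 87.3 to 582 CPM in non-responders, and was 0.798 CPM in the library without treatment. The groups did not overlap, and its log2 fold change was -3.44 ± 1.02 (SE) with an edgeR adjusted p of 0.0585, which missed the threshold. Both names were chosen after their values were seen.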
